A study of Mus musculus with 4 samples.

Results

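The reproducible HTATSF1 peaks of mouse chromosome 11 are the chromatin regions on that chromosome that were called in an HTATSF1 immunoprecipitation and found again in its replicate. They were chosen by a readout of these data: every replicate 1 peak on chromosome 11 with 1 bp or more in common with a peak of replicate 2. The rule found 802 of the 1779 replicate 1 peaks on chromosome 11, out of 8882 such peaks among 19489 over the genome. Because the overlap chose them, the share of peaks that overlap, the scores and the widths of these 802 regions are given as descriptions, without a test.

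The measurements come from chromatin immunoprecipitation followed by sequencing (ChIP-seq) in mouse embryonic stem cells. The cells were derived from mice that carried tatsf1 flox/flox alleles and CreERT2, a Cre recombinase that acts only after an inducer is added. They were left untreated and were grown on mouse embryonic fibroblast (MEF) feeders in conventional medium for such cells, so both libraries carried the floxed gene, and feeder chromatin was not measured apart. The antibody was raised in rabbits against a peptide of mouse HTATSF1. There were 2 immunoprecipitated libraries, each with its own peak list, and 2 input libraries made without antibody, whose values were not analysed here. Neither the strain nor the number of cultures is labelled, so the spread between the lists may be technical. All positions are in the mm9 build and are counted from 1, and the number of reads behind a peak is unknown.

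HTATSF1 (HIV Tat specific factor) works in the nucleus, binds RNA, and associates with splicing factors and with factors of transcription elongation. A protein of this kind can be crosslinked to chromatin through RNA and through other proteins, so a peak marks a place where its signal gathers and need not be a DNA sequence that it reads. Mouse chromosome 11 is known as a gene-dense chromosome. It holds 1609 protein-coding genes in the RefSeq table of the GRCm38 build, the third highest number of the 19 autosomes. That table uses another build than the peaks, and positions were not moved between builds. Genes, exons and introns at the peaks, blocks rich or poor in genes, and the bases under the peaks are therefore not given, and regions are named by position.

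By number of reproducible peaks chromosome 11 was in place 2 of the 19 autosomes, after chromosome 8, while for how often a replicate 1 peak was found again it was in place 9. It carried 9.03% of all reproducible peaks, at 6.75 per Mb between the first and the last replicate 1 peak. The other 18 autosomes had a median of 3.47 per Mb, from 2.28 on chromosome 3 to 7.19 on chromosome 8. Per protein-coding gene chromosome 11 had 0.498 reproducible peaks, behind chromosomes 8 (0.882) and 15 (0.501), where the median of the other autosomes was 0.394. Density per Mb thus set chromosome 11 apart from most autosomes more than density per gene did. These are ranks of single chromosomes and were not tested.

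In replicate 1, 45.1% of the chromosome 11 peaks were found in replicate 2 (802 of 1779, exact 95% binomial interval 42.8 to 47.4%), against 45.6% of all replicate 1 peaks. In replicate 2, 842 of 1278 peaks on the chromosome overlapped a replicate 1 peak, which is 65.9% (63.2 to 68.5%) against 65.2% of all replicate 2 peaks. Both shares sit near the background of the whole lists. The intervals cover counting error only. By share, chromosome 11 was in place 9 of the 19 autosomes in replicate 1 and in place 5 in replicate 2.

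**Figure D1:**
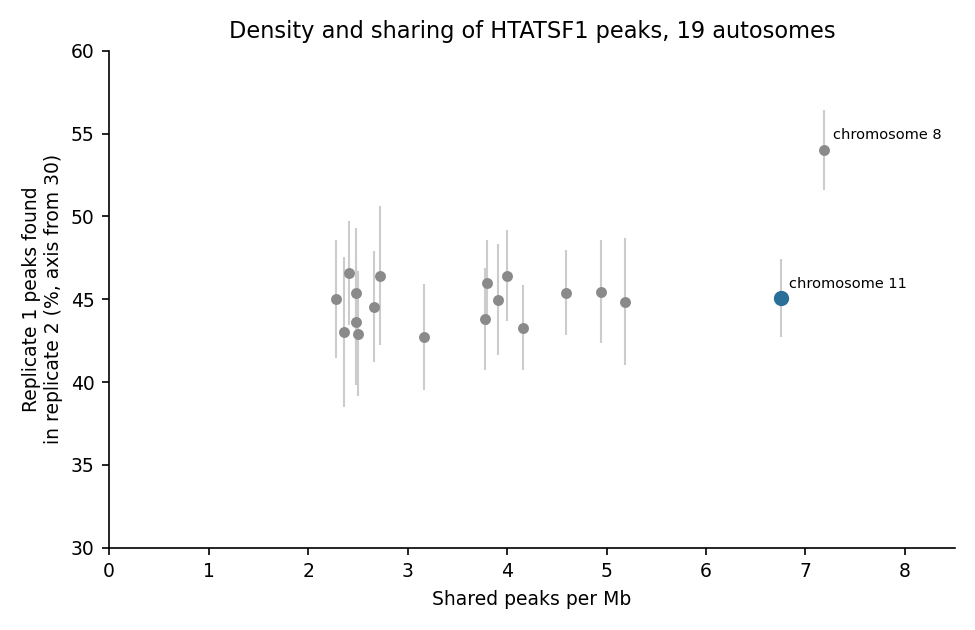
Each point is 1 of the 19 autosomes, with reproducible peaks per Mb on the horizontal axis and the percentage of replicate 1 peaks found in replicate 2 on the vertical axis, which starts at 30; bars are exact 95% binomial intervals. Chromosome 11 (blue) lies at 6.75 per Mb and 45.1%, at the height of most autosomes and far to their right, and chromosome 8 lies above it at 7.19 per Mb and 54.0%.

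At equal score, too, the share of peaks found again was close to that of other autosomes. The score is the number that the authors' peak caller gave each peak. No value lies under 50, and its scale is not stated, so scores were ordered within each list. With peaks sorted into 20 parts by score, the rates of the other autosomes gave 797.8 reproducible peaks for chromosome 11, where 802 were observed. Matched on score and width together, they gave 800.6. In replicate 2 the numbers were 843.1 from the other autosomes and 842 observed. Chromosome 8 had the highest share of all autosomes; leaving it out of the reference moved the score-matched numbers to 790.4 and 834.5.

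In both lists sharing rose with score on chromosome 11 as it did elsewhere. In the lowest of 5 equal parts of the list by replicate 1 score (50.01 to 60.15), 72 of 348 chromosome 11 peaks were shared, which is 20.7% (exact 95% interval 16.6 to 25.3%) against 21.1% on the other autosomes. In the highest part (154.84 and above) it was 264 of 330, or 80.0% (75.3 to 84.2%) against 79.5%. Replicate 2 went from 38.5% (32.4 to 44.9%) in its lowest part to 92.2% (88.3 to 95.1%) in its highest. The intervals of chromosome 11 held the value of the other autosomes in all 5 parts of both lists.

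**Figure D2:**
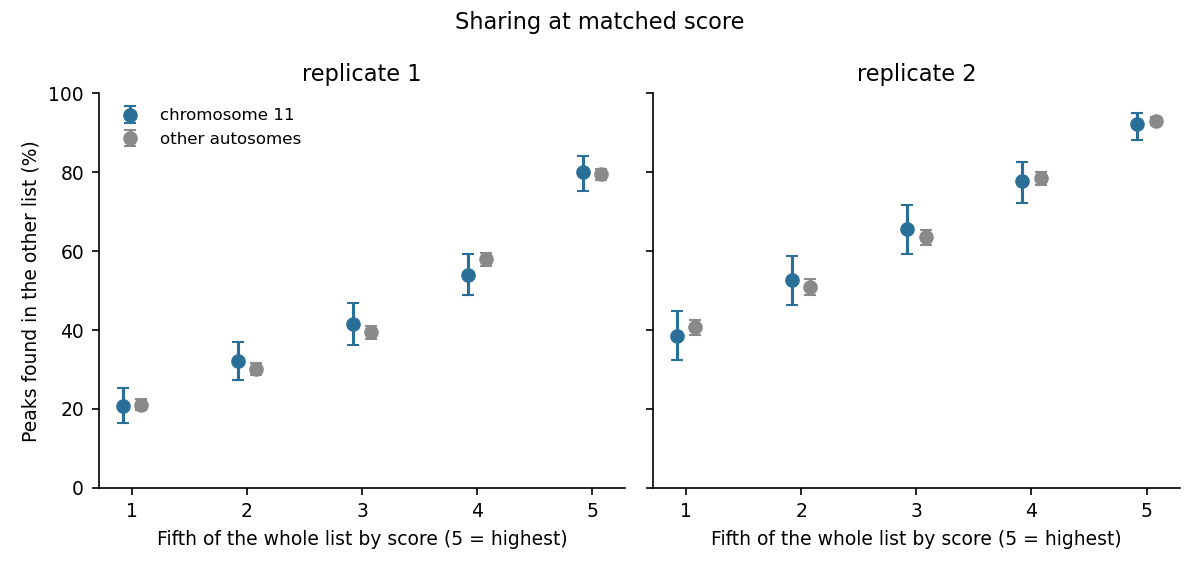
Percentage of peaks found in the other list (vertical axis) in 5 equal parts of the whole list by score (horizontal axis, 5 highest), for chromosome 11 (blue) and the other autosomes (grey), with exact 95% binomial intervals. The points of chromosome 11 follow the grey points in both lists, rising from 20.7% to 80.0% (replicate 1) and from 38.5% to 92.2% (replicate 2).

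Along the chromosome the reproducible peaks gathered in blocks that appeared in both lists. Of the 119 windows of 1 Mb between the first and last peak, 92 held at least 1 reproducible peak. A window had a median of 10 replicate 1 peaks (quartiles 2 and 22.5, at most 67), 7 replicate 2 peaks (2 and 17, at most 50) and 3 reproducible peaks (1 and 10.5, at most 33). The counts of the lists rose and fell together: the Spearman correlation across the 119 windows was 0.96, and 0.94 over the 94 windows occupied in both. The windows share a genome and its mappable sequence, so this correlation is a description. Replicate 1 had more peaks in 83 windows, replicate 2 in 11, and 8 occupied windows had equal counts.

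Dense windows were more frequent on chromosome 11 than over the genome. At least 30 replicate 1 peaks lay in 18 of its windows (15.1%), against 5.62% of all 2578 windows of the genome. At least 30 replicate 2 peaks lay in 12 (10.1%), against 2.33%. All 12 were among the 18. Empty windows were fewer: 19 (16.0%) had no replicate 1 peak, against 26.9%. In replicate 2 chromosome 11 had 23 empty windows (19.3%). On the other 18 autosomes the median share without a replicate 1 peak was 24.1%. Chromosomes 9 (10.7%) and 13 (14.4%) were below chromosome 11. The rest of the genome includes chromosome X, where peaks are few, and these differences were not tested.

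**Figure D3:**
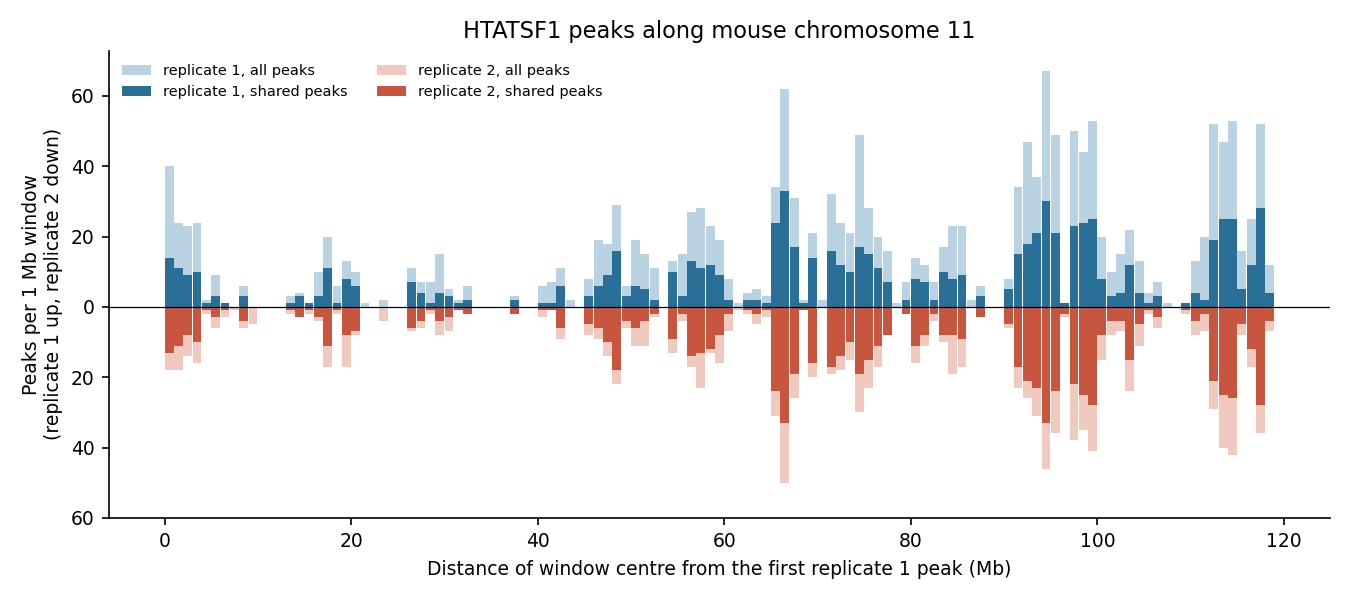
Peaks per 1 Mb window along chromosome 11 (vertical axis, replicate 1 upward and replicate 2 downward), by distance of the window's centre from the first replicate 1 peak in Mb. Pale bars are all peaks and dark bars those found in the other list; the tallest pale bars are 67 in replicate 1 and 50 in replicate 2, and 17 windows are empty in both.

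The distal part of the chromosome held most of the reproducible peaks. From position 50 Mb on, a boundary chosen after the counts were seen, 72 windows held 675 of the 802 (84.2%), or 9.38 per window. Before it, 47 windows held 127, or 2.70 per window. Both lists showed it: replicate 1 had 20.4 against 6.55 peaks per window and replicate 2 had 14.8 against 4.53. The scores differed less than the counts did. The median score of reproducible peaks was 119.9 in the distal part and 113.6 in the proximal part in replicate 1, and 89.98 and 88.6 for their replicate 2 partners. Of the replicate 1 peaks, 45.9% (exact 95% interval 43.3 to 48.5%) were shared in the distal part and 41.2% (35.7 to 47.0%) in the proximal part.

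Dense windows lay next to each other. Runs of at least 3 neighbouring windows with at least 20 replicate 1 peaks each numbered 7. They took up 29 windows (24.4%) and held 491 reproducible peaks (61.2%), with 59.8% of the replicate 1 and 59.2% of the replicate 2 peaks. Replicate 2 had no part in choosing these runs, and its peaks were concentrated in them to the same degree. The reproducible peaks are replicate 1 peaks, whose counts chose the runs, so their share partly follows from the choice.

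The run with the most reproducible peaks was chr11:94000001-99000000, with 105 of them among 234 replicate 1 and 162 replicate 2 peaks. The run densest per Mb in reproducible peaks was chr11:68000001-71000000, where 74 lay among 127 and 107 peaks, or 24.7 per Mb. Next in number after the first of these were chr11:74000001-80000000 with 81 reproducible peaks and chr11:100000001-104000000 with 80. The run at chr11:114000001-118000000 held 71. The other runs were smaller, with 44 at the proximal end (chr11:3000001-7000000) and 36 at chr11:59000001-62000000. The proximal run had 27.8 replicate 1 peaks per Mb but 16.5 replicate 2 peaks and 11 reproducible ones per Mb, the fewest reproducible peaks per Mb of the 7.

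Among single windows of 1 Mb, chr11:97000001-98000000 held the most replicate 1 peaks, 67, with 46 in replicate 2 and 30 reproducible. The window chr11:69000001-70000000 came next with 62 and 50 peaks and had the most reproducible ones, 33. A pair of windows tied at 53 replicate 1 peaks, chr11:102000001-103000000 with 41 in replicate 2 and chr11:117000001-118000000 with 42, and each had 25 reproducible peaks. Another pair tied at 52: chr11:120000001-121000000 had 36 in replicate 2 and 28 reproducible, and chr11:115000001-116000000 had 29 and 19. All 6 of these windows were in the distal part. The next 4 windows began at 100000001 (50 and 38 peaks, 23 reproducible), 77000001 (49 and 30, 17 reproducible), 98000001 (49 and 36, 21 reproducible) and 95000001 (47 and 26, 18 reproducible). The window at 116000001 also had 47 replicate 1 peaks. These first 10 windows held 29.8% of the reproducible peaks, and 7 of the 10 were among the 10 densest of replicate 2.

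The share found again differed between dense windows. Of the 34 replicate 1 peaks in chr11:68000001-69000000, 24 were shared (70.6%, exact 95% interval 52.5 to 84.9%). Of the 49 in chr11:77000001-78000000, 17 were (34.7%, 21.7 to 49.6%), and of the 40 in the first window, chr11:3000001-4000000, 14 were (35%, 20.6 to 51.7%). Lower still was chr11:114000001-115000000, at the start of a dense run, with 2 of 20 (10%, 1.23 to 31.7%). These windows were picked after their values were seen. Grouped by replicate 1 count, windows with 1 to 9 peaks had 37.2% shared (29.8 to 45.1%), those with 10 to 19 had 41.5% (36.2 to 47.0%), those with 20 to 39 had 48.8% (44.8 to 52.8%) and those with 40 or more had 45.4% (41.6 to 49.3%). For replicate 2 peaks in the same windows the shares were 56.5%, 62.3%, 68.6% and 68.1%. Sparse windows also had lower scores, with a median over all replicate 1 peaks of 76.5 where windows held 1 to 9 peaks and 88.5 where they held 40 or more. Their part in the lower share was not tested.

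Stretches without any HTATSF1 peak were also found in both lists. No peak of either list lay in 17 windows, and 5 runs of at least 2 such windows were present. The longest was chr11:36000001-40000000, at 4 Mb. It was followed by chr11:13000001-16000000 at 3 Mb. Runs of 2 Mb lay at chr11:27000001-29000000, chr11:41000001-43000000 and chr11:91000001-93000000. The largest distance between midpoints of neighbouring reproducible peaks was 5.51 Mb, from the peak ending at 23566549 to the one starting at 29072711.

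Compared with other autosomes, the reproducible peaks of chromosome 11 were spread over more of its length. The densest 20% of its windows (24 windows, each with at least 24 replicate 1 peaks) held 473 of them, or 59.0%. On the other autosomes this share ran from 56.9% (chromosome 9) to 70.4% (chromosome 15), with a median of 64.7%, and 15 of the 18 were above chromosome 11. The sparser 59 windows still held 64 reproducible peaks (7.98%). The agreement of window counts between lists was 0.96 on chromosome 11 and from 0.85 to 0.96 on the others. Only on chromosome 8 was it higher. These ranks were not tested.

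On a finer scale most reproducible peaks had no other reproducible peak less than 10 kb away. Unshared peaks were left out of these distances, and other chromosomes were not measured in this way. Some neighbours overlapped the same replicate 2 peak and are counted apart here. The 802 reproducible peaks had 774 distinct best-scored partners. The median distance between midpoints of neighbours was 41.9 kb (quartiles 12.6 and 106.4 kb), and 170 of 801 distances were under 10 kb. Joining those with less than 10 kb between them gave 626 groups: 501 single peaks, 91 pairs and 34 groups of 3 or more. The largest group, chr11:69468249-69495829, held 6 reproducible peaks in 27.6 kb, out of 7 replicate 1 and 6 replicate 2 peaks, with scores of at most 162.9 and 138.1. There were 3 groups of 5: chr11:68849354-68859404, chr11:68923893-68937973 and chr11:69804297-69814470. The 4 largest groups therefore all lay in the run at chr11:68000001-71000000. In windows of 100 kb, reproducible peaks were present in 405 of 1189. The most were 11 in chr11:68800001-68900000, where each list had 13 peaks, followed by 8 in chr11:69400001-69500000 (10 and 10 peaks) and 8 in chr11:96800001-96900000 (11 and 9).

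Reproducible peaks were wider than the peaks found once. Their median width was 500 bp in replicate 1 (quartiles 364.5 and 653.5), against 342 bp (267 and 459) for the 977 unshared peaks of the chromosome. In replicate 2 the medians were 340 bp and 220 bp. The share found again climbed with width up to 799 bp, from 26.0% of replicate 1 peaks of 200 to 299 bp to 61.4% of those of 500 to 599 bp and 78.9% of those of 700 to 799 bp. It was 76.4% at 800 to 899 bp, 70.6% at 900 to 999 bp and 83.3% of the 30 peaks of 1000 bp or more. In replicate 2 it climbed from 62.6% at 200 to 299 bp to 100% at 700 to 999 bp, and 1 of the 2 peaks of 1000 bp or more was shared. A wide peak has more bases to overlap with, so this is part of the rule. It also had a higher score: the Spearman correlation of width and score was 0.80 over all replicate 1 peaks of the chromosome and 0.78 over the reproducible ones.

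**Figure D4:**
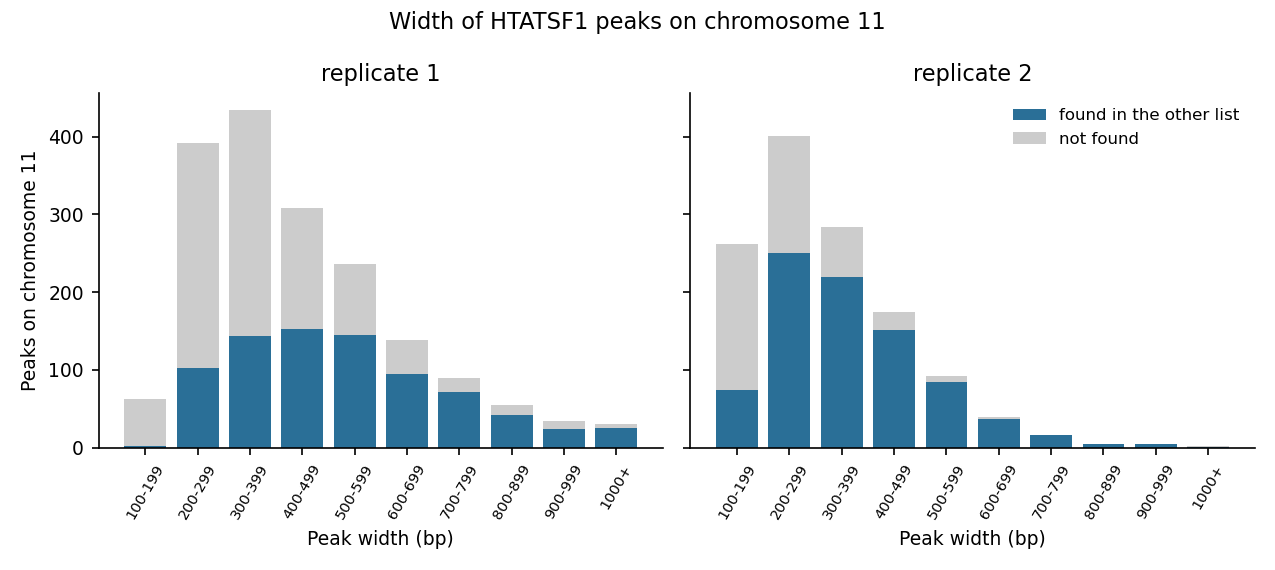
Number of chromosome 11 peaks (vertical axis) by width in bp (horizontal axis) in each list, split into those found in the other list (blue) and those not (grey). The blue part of a bar grows up to 700 to 799 bp, where it is 78.9% of the bar in replicate 1 and 100% in replicate 2, after 26.0% and 62.6% at 200 to 299 bp; wider bars hold few peaks and do not keep growing.

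Most reproducible peaks were between 300 and 1000 bp wide in replicate 1 (673 of 802), 104 were narrower and 25 wider. A member was wider than its best-scored replicate 2 partner in 631 cases (78.7%), narrower in 170 and equal in 1. The median ratio of the widths was 1.38. Replicate 2 peaks often lay inside replicate 1 peaks: 361 partners (45.0%) were wholly contained. The overlap had a median of 305 bp and covered a median of 63.8% of the replicate 1 peak and 96.5% of the replicate 2 peak. Midpoints were a median of 76.3 bp apart, and 494 pairs (61.6%) were within 100 bp. The shift had no direction, with a signed median of 1.5 bp. The widths of partners were correlated across peaks with a Spearman coefficient of 0.40.

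Pairing was mostly simple. A single partner was found for 738 members, 2 partners for 58 and 3 for 6, while 30 replicate 2 peaks overlapped 2 replicate 1 peaks. In 685 cases (85.4%) each peak was the other's only partner. Overlaps were measured with the best-scored partner only. The shortest were 2 bp (chr11:97048206-97048980), 7 bp (chr11:115024805-115025146) and 9 bp (chr11:3435347-3435727). The first of these peaks had 2 partners, so 2 bp need not be its longest overlap. The others had a single partner and lay at the edge of the rule. Just outside the rule, the peaks chr11:6191887-6192471 and chr11:86648659-86648880 adjoined a replicate 2 peak with no base between. The peak chr11:105042316-105042506 was separated from one by 1 bp. Only 16 members overlapped their best-scored partner by less than 50 bp. Asking for 50% of both peaks kept 542 replicate 1 peaks of the chromosome (30.5%, against 30.4% over all chromosomes), and allowing a distance of 1 kb gave 977 (54.9%, against 54.2%).

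The widest member was unlike the rest. It lay at the proximal end, at chr11:3031263-3038126, was 6864 bp wide and scored 74.9, below the median of the members, while its replicate 2 partner was 3033 bp wide and scored 111.8. The next widest member was 1439 bp. Other broad peaks lay within the same 100 kb: in replicate 1 at chr11:3049446-3050539 (1094 bp, score 54.6) and chr11:3091042-3094465 (3424 bp, score 167.2), and in replicate 2 at chr11:3053388-3054413 (1026 bp, score 85.7). None of these 3 was shared. The widest member held 1.59% of the bases of all members, and without it the median width stayed at 500 bp and the correlation of scores between lists at 0.40.

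Scores of reproducible peaks agreed in part between the lists. Members scored a median of 119.3 in replicate 1 (quartiles 76.9 and 172.9, range 50.14 to 539.1), against 70.9 for unshared peaks. The shared replicate 2 peaks had a median of 85.1 against 60.7 for unshared ones. Each member was set against its best-scored partner. The Spearman correlation over the 802 was 0.40 and the Pearson correlation of log scores 0.42, beside 0.37 and 0.41 over the reproducible peaks of all chromosomes. Chromosome 11 was in place 4 of the 19 autosomes, which ran from 0.28 to 0.45.

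The median partner score rose mainly in the upper parts of the replicate 1 scores. In the upper 50% of each list the Spearman correlation was 0.27 over 418 peaks, against 0.40 over all members. That choice narrows the range of both scores, which can itself lower a correlation. The values therefore do not show whether high scores agreed more or less closely than low ones. In the lowest of 5 parts of the members by replicate 1 score (50.14 to 71.61) the partners had a median of 72.3, and in the part above it 74.0. The medians then rose to 83.3, 106.4 and, in the highest part (191.2 to 539.1), 122.9. Even there the quartiles of the partners were wide, at 89.7 and 181.5. Split by width, the 267 narrowest members (186 to 409 bp) had a score correlation of 0.04, while the middle 267 had 0.34 and the widest 268 had 0.33. The narrowest also spanned the lowest scores, with a median of 72.7 in replicate 1. These values are across peaks, which are not replicates.

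High scores recurred in place more than in rank. Of the 50 highest-scored replicate 1 peaks on the chromosome 48 were reproducible, and of the 50 highest of replicate 2, 49 were. Frequent sharing of high scores was not particular to chromosome 11. In the highest of 5 parts by score, 80.0% of its replicate 1 peaks were shared, against 79.5% on the other autosomes. In replicate 2 it was 92.2% against 93.0%. In 14 cases both partners were among these 50, and in 36 cases among the highest 100. These joint counts were not made for other chromosomes. In the upper 10% of both whole lists lay 54 members (6.73%), against 7.69% of reproducible peaks over all chromosomes. The percentile of a member within each whole list differed by at most 10 points in 251 cases (31.3%) and by over 50 points in 92 (11.5%), with replicate 1 higher in 42 and replicate 2 higher in 50.

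**Figure D5:**
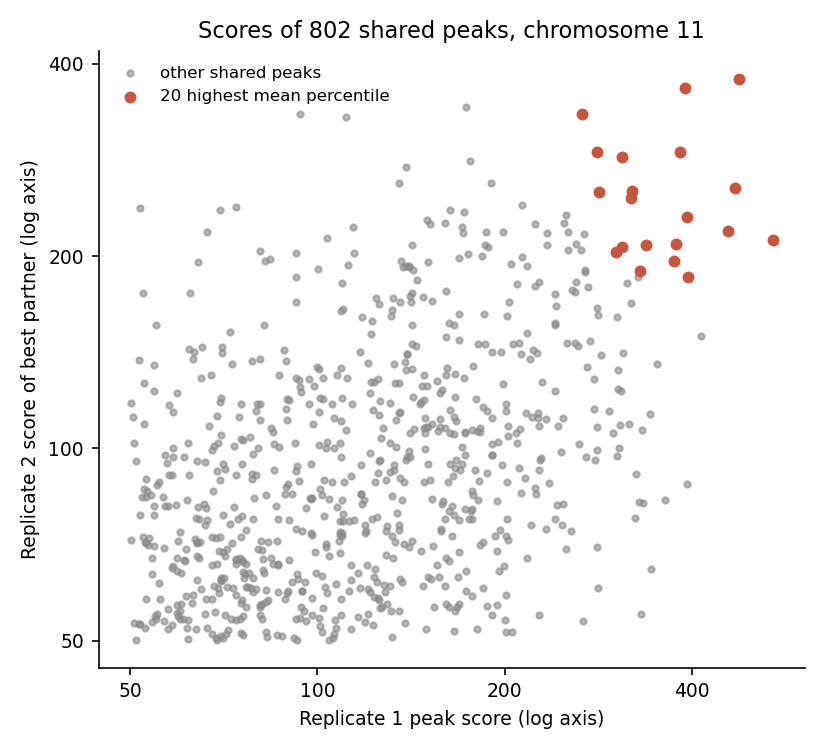
Replicate 1 score (horizontal log axis) and score of the best replicate 2 partner (vertical log axis) of the 802 reproducible peaks of chromosome 11; the 20 with the highest mean percentile over both lists are in red. Low scores form a cloud with no clear slope, the overall Spearman correlation is 0.40, and the red points were chosen by both scores and so lie at the upper right.

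The 20 members whose score percentile, averaged over the lists, was highest were named by rule. They scored 266.4 to 539.1 in replicate 1 and 185.5 to 378.9 in replicate 2. They were wide, with medians of 838 bp and 584 bp, 16 were wider than their partner, and their midpoints were a median of 61.0 bp from it. In all, 18 had a single partner. Width rose with score among members, so wide peaks follow from a choice by score. Of all 802 members, 631 were wider than their partner and 738 had a single partner. The highest was chr11:86570602-86571561, which scored 476.6, with a partner at 378.9 that lay wholly inside it. The second, chr11:77845374-77846304, scored 389.1 and 365.9. The third was chr11:98318654-98319575, with 468.7 and 256.0, and the fourth chr11:48630336-48631185, with 383.1 and 290.8. The fourth lay in a window of 8 replicate 1 and 8 replicate 2 peaks, so a high score did not need a dense window.

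The others of the 20 were scattered along the chromosome. The distal end had chr11:120345708-120346275, with scores of 392.0 and 230.3, and chr11:120657352-120658177, with 319.2 and 246.3, in the same 1 Mb window. In the blocks before it lay chr11:115273968-115275286 (376.6 and 208.8), which had 3 partners and at 1319 bp was the widest of the 20, and chr11:102417259-102417910 (330.4 and 189.4). The dense run at chr11:94000001-99000000 held chr11:95868114-95869034 (374.2 and 196.8) beside the third-ranked region. Just before that run lay chr11:93829248-93829952, at 457.3 and 218.6, in a window with 8 replicate 1 peaks.

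A set of 3 lay in the same 1 Mb window: chr11:80022261-80022988 (283.9 and 251.5), chr11:80191178-80191730 (309.2 and 286.2) and chr11:80289962-80290757 (281.4 and 290.6). Their window held 16 and 8 peaks, 7 reproducible, so 3 of its 7 were among the 20. Before them came chr11:75323633-75324629, whose 539.1 was the highest replicate 1 score on the chromosome beside a partner at 212.2, and chr11:72861062-72861611 (394.6 and 185.5). The block densest in reproducible peaks had chr11:69714779-69715514 (320.4 and 252.5, midpoints 0.5 bp apart) and chr11:68850291-68851564 (308.8 and 206.5). The latter belonged to a group of 5 members, and its midpoints were 378.5 bp apart.

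Further toward the proximal end lay chr11:59990069-59990932 (336.9 and 208.1), chr11:58115653-58116236 (266.4 and 333.3) and chr11:23565666-23566549 (302.4 and 202.9). The region at 58115653 had another member 0.488 kb away, which overlapped the same replicate 2 peak. The one at 23565666 was 359.0 kb from its nearest member and stood at the edge of the longest interval without a reproducible peak. Of the 20, 9 lay in windows with at least 30 replicate 1 peaks. The densest 20% of windows, with at least 24 such peaks each, held 59.0% of all members. That is a larger set of windows, so the values are not at the same cut. The 9 are not read as a concentration in dense windows or as a lack of one. The median distance of the 20 to the nearest other member was 20.8 kb, and that of all members 18.6 kb. By this measure the highest-ranked regions were spaced much like the rest.

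Some members ranked high in one list and low in the other. The 3 with the largest drop from replicate 1 to replicate 2 were chr11:76296672-76297304 (201.2 and 51.6), chr11:120493796-120494802 (205.6 and 51.6) and chr11:79805884-79806755 (267.0 and 53.7). Their partners lay wholly inside them and were 200 to 391 bp wide. The reverse was seen at chr11:76576883-76577249 (51.9 and 238.0), chr11:117126988-117127386 (52.4 and 175.3) and chr11:117642226-117642745 (51.6 and 137.7). All 6 had a single partner, as had 738 of the 802 members. They lay in windows with at least 20 replicate 1 peaks, as most members did: 299 in windows with 20 to 39 and 302 in those with 40 or more. The partner of chr11:117126988-117127386 overlapped it by 60 bp. That partner also overlapped the neighbouring member chr11:117127501-117127697, by 197 bp. The 6 members were chosen after their values were seen.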

How the data were processed

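The data were 2 peak lists, 1 for each library made with the antibody. Samples were grouped and numbered by their titles. Each peak was deposited with its position, a name and the score that the authors' caller gave it; these positions and other values were used as deposited. Per the submitters' processing notes, Bowtie, Picard 1.82 and bedtools were used with the mm9 build; their settings are not stated there. Peak names in the deposited files start with MACS, which is a peak caller; the sources used here do not give its settings or control.

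Peaks were shared when they overlapped by at least 1 bp. Where a member had several partners, the partner's width, score, overlap and midpoint are those of the best-scored one. A peak was put in a window by its midpoint, and windows start at the first base of the chromosome. Numbers at matched score came from 20 parts of each list by score, or 10 parts by score and 4 by width, with the rates of the other autosomes. Percentiles are within the whole list. Intervals are exact (Clopper-Pearson) at 95%. No test was run, since the overlap chose the members and peaks of 1 list are not replicates. Depth is unknown, so no precision can be set on a score. The named regions are the 20 with the highest mean percentile, the 10 densest windows, runs of at least 2 empty windows, the 3 shortest overlaps, the 3 nearest peaks outside the rule and the 3 highest-scored unshared peaks of each list. Members, lists and alternatives were chosen with earlier results of these data known. Planned gene positions needed an mm9 annotation and were not run. The overlap code was tested on simulated lists. Computations used scipy 1.17.1, numpy 2.4.6 and pandas 2.3.3 under Python 3.11.15, and figures matplotlib 3.10.9.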

Additional observations from a re-analysis of the deposited data

How the results depend on the processing

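Of 28 alternatives, 15 left the interval of the main value. Only the correlations could change sign, and none did. Shares, widths and counts cannot be negative, so no change of direction was possible for them. Of the 28, 6 (leaving chromosome 8 out of the score-matched reference, matching on width as well, leaving out the widest member) were chosen after seeing the data. The share of replicate 1 peaks on chromosome 11 found in replicate 2, 45.1%, left its 95% binomial interval under each alternative: 30.5% with 50% of both peaks overlapping, 54.9% within 1 kb, 48.2% among the upper 50% by score of each list, 54.0% with replicate 1 cut to the length of replicate 2, 49.0% with peaks under 1 kb apart merged, and 65.9% counted from replicate 2. The score correlation of 0.40 became 0.54 with 50% overlap and 0.27 in the upper 50% by score. The window correlation of 0.96 became 0.92 in windows of 500 kb and 0.97 in windows of 2 Mb. The median width of 500 bp became 472 bp with 50% overlap, 595.5 bp in the upper 50% by score and 352.5 bp for replicate 2 partners. The share in the densest 20% of windows, 59.0%, became 63.0% in windows of 500 kb and 52.9% in windows of 2 Mb. The other 13 alternatives stayed within the interval of the value, which for correlations was a Fisher z interval over peaks or windows. Leaving out a replicate gives no overlap. No paired analysis was possible because only the antibody libraries were analysed here, with 1 list for each number. Since depth is unknown, a peak missing from a list does not show a region without HTATSF1.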

Other observations

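Some high-scored chromosome 11 peaks were found in a single list. In replicate 1 the highest was chr11:119250949-119251900, which scored 288.9 and lay 1.59 kb from the closest peak of replicate 2. The next were chr11:5688157-5688927, with 282.7 and a gap of 25.6 kb, and chr11:60350483-60351723, with 277.1 and a gap of 82.2 kb. In replicate 2 they were chr11:20131032-20131580 (208.9, gap 17.3 kb), chr11:60643959-60644454 (179.8, gap 18.8 kb) and chr11:30167977-30168236 (171.6, gap 69.3 kb). The first of each list was above the 96th percentile of its whole list.

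Unshared peaks lay at varied distances from the other list, with a median gap to its nearest peak of 10.9 kb in replicate 1 and 6.37 kb in replicate 2. Of the 977 in replicate 1, 514 (52.6%) had no replicate 2 peak within 10 kb, and 175 (17.9%) had one within 1 kb. Of the 436 in replicate 2, 175 (40.1%) had no replicate 1 peak within 10 kb and 108 (24.8%) had one within 1 kb. The windows chr11:10000001-11000000 and chr11:12000001-13000000 held 1 and 5 replicate 2 peaks and no replicate 1 peak.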
